A study of Mus musculus with 12 samples.

Results

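Histone genes and genes that modify, read or remodel chromatin were followed in mouse spermatids. Members were all reference contigs whose gene symbol begins like those of histones (H1f, H2a, H2b, H3f, H3c, H4c, Hist, Hils), deacetylases (Hdac), acetyltransferases (Kat), demethylases (Kdm), bromodomain proteins (Brd), CHD helicases (Chd), SWI/SNF and ISWI subunits (Smarc) or high mobility group proteins (Hmga, Hmgb, Hmgn). This symbol rule used no measured value and found 101 of 12114 contigs, which belong to 71 gene symbols. A contig is 1 annotated transcript that reads were counted on, and 1 gene can have several of them. Of the 101 contigs, 100 had enough reads to be tested. The remaining contig, of Brd8dc, held 22 counts over all 12 libraries. Because the rule works on symbols, it also takes in pseudogenes (H2al1r-ps, Hmgb1-rs17) and leaves out chromatin genes with other names.

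Native poly(A) RNA was read by nanopore direct RNA sequencing, in which each read stands for 1 RNA molecule. Round spermatids (RS), the first cells after meiosis, and elongated spermatids (ES), in which the nucleus condenses, were sorted from testes of adult mice on Hoechst and propidium iodide staining and on light scatter. Males were Tent5c wt/wt, or Tent5c dcat/dcat, which are homozygous for an allele that encodes a catalytically inactive TENT5C, a poly(A) polymerase. The 4 groups (RS wt/wt, RS dcat/dcat, ES wt/wt and ES dcat/dcat) had 3 libraries each, and each library was made from RNA pooled from 3 mice. The methods state that both cell types were taken from each mouse and that every sorting session held 1 mouse of each genotype, so the groups are not independent of each other in mice and sessions. The fit had no term for this, and the calls that a replicate term changed are given beside the genes. No group received an agent. Values below are counts scaled to 1000000 (CPM) after scaling of the libraries by the TMM method, called scaled CPM. A log2 change is followed by its standard error (SE), and q is the p-value of edgeR's quasi-likelihood test after Benjamini-Hochberg adjustment over all 11831 contigs tested, with a call at q at or under 0.05. The tests measure the spread between the 3 pooled libraries of a group, not between single mice. Total counts ran from 337287 to 1359427 per library, and a floor of 3 counts stood at 1.77 to 10.6 scaled CPM, which covers counting error only.

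In most cells, DNA is wrapped around octamers of the core histones H2A, H2B, H3 and H4, and the linker histone H1 binds where the DNA enters and leaves. Spermatids take this chromatin apart: testis variants of histones enter, histone H4 is acetylated, bromodomain proteins read the acetylation, and transition proteins and then protamines replace nearly all histones. Histone genes used during DNA replication end in a stem-loop and normally carry no poly(A) tail, whereas histones made outside S phase, among them most testis variants, have a polyadenylation signal and a tail. This study selected RNA on oligo(dT) beads, a step that selects molecules with a tail.

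The annotated ends of the histone transcripts are shown first, because RNA was selected by its tail. Their part in the counts of a gene was not tested, and contigs without a hexamer (H2ac18, H1f7 and H2bl1) were among the histones with the most counts. Windows of 30 bases come from the GENCODE vM21 transcripts on build GRCm38, on the strand of the gene. In the first set, capitals mark a match to the histone stem-loop, searched on the transcript strand as GG, 2 bases, CTT, 1 base, T, 1 base, AG, 2 bases and CC. H2ac18 and H2ac19 are replication-type H2A genes with the same stem-loop, 35 bases before the annotated end, H3c1 and H4c1 are replication-type H3 and H4 genes, and H2ax encodes the H2A variant that marks DNA breaks.

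H2ac18 (chr3:96246025-96246054, plus strand): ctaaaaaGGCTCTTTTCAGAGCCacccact
H2ac19 (chr3:96239777-96239806, minus strand): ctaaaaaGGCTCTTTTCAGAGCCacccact
H3c1 (chr13:23761883-23761912, minus strand): aaccaaaGGCTCTTTTCAGAGCCacacacg
H4c1 (chr13:23760793-23760822, minus strand): aaccaaaGGCCCTTCTCAGGGCCgcccaca
H2ax (chr9:44335233-44335262, plus strand): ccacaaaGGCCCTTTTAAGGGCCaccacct

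Of 11344 contigs with a sequence in vM21, 33 (0.291%) held this pattern. H2ac18, H2ac19 and H3c1 had neither AATAAA nor ATTAAA in their last 60 bases, whereas H4c1 and H2ax carry both a stem-loop and, further on, such a hexamer. In the second set, capitals mark the polyadenylation hexamer of the testis variants and of 1 HMG gene.

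H1f9 (chr11:94968421-94968450, plus strand): ccaccaagtgggAATAAAacgcaacttatt
H2al1g (chrX:11318726-11318755, plus strand): atcaaatatgctATTAAAgcatctagatcg
H2al1n (chrX:14211622-14211651, plus strand): atcaagcatgctATTAAAgcatctaaatcg
H2al2a (chr2:17996427-17996456, minus strand): atcaaacatgctATTAAAgcatttacatcg
H2al3 (chrX:9850224-9850253, plus strand): atcagacattttATTAAAgtgtctaaacca
H2ap (chrX:9847472-9847501, plus strand): tccatgactactAATAAAatgtttaaatga
Hmgb4 (chr4:128260215-128260244, minus strand): ccagtttgaaacAATAAAacatcattcaat

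All 9 protein-coding H2al contigs had ATTAAA in the last 60 bases, a word found there in 18.6% of contigs, whereas AATAAA was found in 61.8%. H1f7 and H2bl1 had neither word there, as had 23.4% of all contigs. The H2al genes encode H2A proteins with a shortened carboxyl-terminal end. Their annotated coding sequences run to 105 codons (6 H2al1 genes), 109 (H2al1n), 111 (H2al2a) and 128 (H2al3), against 130 codons for H2ac18. The transcripts of the 7 protein-coding H2al1 genes, all on chromosome X, are 88.2% to 99.6% identical in their 21 pairs, so reads could be split between them and the value of any single H2al1 contig is uncertain. H2al2a was 80.5% to 83.5% identical to them. H2ac18 and H2ac19 were 90.1% identical over their whole length, and their counts are uncertain for the same reason.

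The promoters of the H2al genes are shown next. RefSeq windows on GRCm38.p6 run from 250 bases before to 50 bases after each annotated start. The longest run shared by the 8 windows of the 7 H2al1 genes and H2al2a has 30 bases and is marked in capitals for 3 of them.

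H2al1m (chrX:9283658-9283717, plus strand): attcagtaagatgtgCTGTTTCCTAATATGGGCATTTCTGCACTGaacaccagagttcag
H2al1n (chrX:14211008-14211067, plus strand): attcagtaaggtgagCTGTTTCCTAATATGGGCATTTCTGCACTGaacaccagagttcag
H2al2a (chr2:17996999-17997058, minus strand): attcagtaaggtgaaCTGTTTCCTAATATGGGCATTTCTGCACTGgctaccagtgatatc

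The run stood in 14 of 32851 windows, and all 14 belong to H2al1 or H2al2a genes. The next 4 windows are of 100 bases and end 11 bases before the start. Capitals mark 3 words searched on both strands. The first is TATAAA, the core of the TATA box. The second is CCAAT, which reads ATTGG on the opposite strand. The third is TGACGTCA, the palindrome bound by CREB and CREM factors.

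H2al3 (chrX:9849593-9849692, plus strand): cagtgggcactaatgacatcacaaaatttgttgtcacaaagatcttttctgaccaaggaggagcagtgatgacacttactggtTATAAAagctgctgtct
H2ap (chrX:9846837-9846936, plus strand): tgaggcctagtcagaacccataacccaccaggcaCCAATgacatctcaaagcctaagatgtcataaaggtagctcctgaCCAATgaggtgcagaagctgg
H2ac18 (chr3:96245387-96245486, plus strand): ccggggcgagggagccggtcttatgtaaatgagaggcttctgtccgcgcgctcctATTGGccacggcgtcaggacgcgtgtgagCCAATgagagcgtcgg
H4c1 (chr13:23761260-23761359, minus strand): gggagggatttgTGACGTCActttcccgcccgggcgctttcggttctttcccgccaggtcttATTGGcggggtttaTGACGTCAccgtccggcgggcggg

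CCAAT on either strand was found in 1 of 10 windows of short testis H2A genes, that of H2ap, and in 6 of 6 windows of the other H2A genes, against 37.4% of all windows. TATAAA on either strand was found in 1 of the 10, that of H2al3, against 13.6% of all windows. TGACGTCA was in the window of H4c1 and in none of the 10, and 1.79% of all windows hold it. These are matches of letters in a window and say nothing of a factor.

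From RS to ES, every one of the 11 short testis H2A contigs rose, as did the testis linker histones H1f7 and H1f9 and the testis histone H2bl1, by 4.34-fold to 9.01-fold in wt/wt. The main contigs of the variants H2az1 (2.02-fold) and H3f3a (1.83-fold) fell. Among the 60 tested contigs of modifiers and remodellers, 12 fell and 2 rose in wt/wt, the 2 being Hdac11 and Chd5. Over all contigs, 16.5% fell and 23.8% rose. In dcat/dcat, 10 of the 60 fell and 3 rose, where 16.9% and 24.0% of all contigs did. The same shares of all contigs stand beside the calls of each role below. Over all members, however, the number of calls was close to that of any contig: 41 of 100 tested members were called in wt/wt (23 higher, 18 lower), where 40.3% of all contigs were called (23.8% higher, 16.5% lower). In dcat/dcat, 36 were called (23 higher, 13 lower), where 41.0% of all contigs were called (24.0% higher, 16.9% lower). Of the members, 22 rose and 10 fell in both genotypes, which share no libraries, and none was called in opposite directions. The share of all contigs called alike in both genotypes was not counted, so this agreement cannot be read as particular to the members. In wt/wt the median log2 change was -0.23 over the members and -0.24 over all contigs. It was 1.23 over the 32 histone contigs and -0.48 over the 60 tested contigs of modifiers and remodellers.

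**Figure D1:**
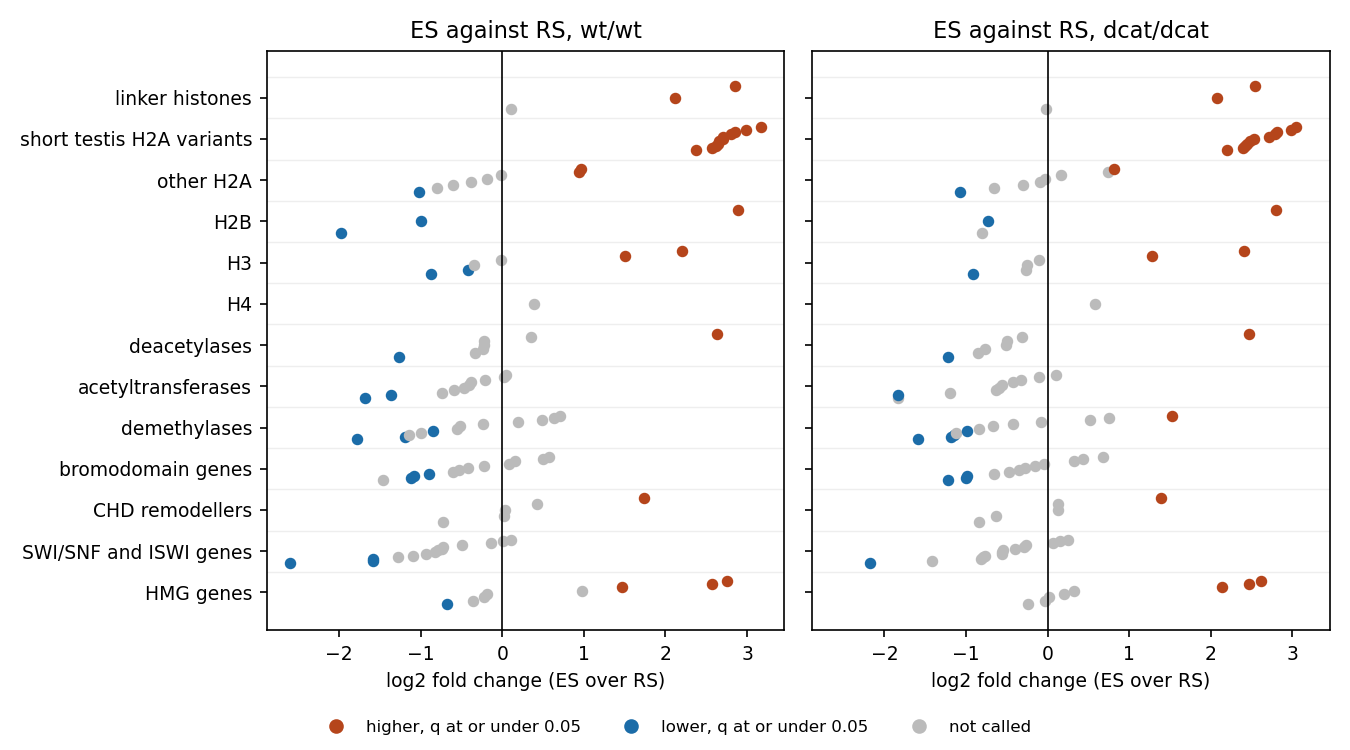
Log2 fold change of ES over RS for the 100 tested member contigs, by role, in wt/wt (left) and dcat/dcat (right). Each point is 1 contig, coloured by its call. All 11 short testis H2A contigs lie above 2 in both genotypes, whereas most points of the modifiers and remodellers lie below 0.

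Scaling by total counts alone, without correction for composition, moved the median of all contigs in wt/wt to -0.96 and gave 20 members higher and 48 lower in wt/wt, where 16.5% and 45.7% of all contigs were called so. In dcat/dcat it gave 19 higher and 47 lower, where 16.6% and 42.2% of all contigs were called so. Leaving out 1 library at a time gave 9 to 16 members called lower in wt/wt in place of 18. The lowest count came without ES wt/wt replicate 2, where 22 were called higher. The share of all contigs called in these fits was not counted, so the loss of falls cannot be read as particular to the members. In bulk libraries, fewer cells of a type and less RNA per cell cannot be told apart. Markers of elongated spermatids summed to 19136 to 41377 scaled CPM in RS and to 209060 to 278447 in ES, with 10 of 11 contigs called higher in ES of each genotype. In RS the sum was lowest in replicate 1 of each genotype (19136 in wt/wt and 23358 in dcat/dcat). Markers of 2 somatic cell types of the testis were also higher in ES. Leydig markers (6 contigs of 5 genes, all 6 called higher in each genotype) summed to 12.5 to 44.9 scaled CPM in RS and to 227 to 929 in ES, with no contig of Star, Lhcgr, Hsd3b1 or Hsd3b6. Sertoli markers (9 contigs of 7 genes, all 9 called higher) summed to 10.7 to 53.8 in RS and to 272 to 574 in ES, with no contig of Sox9, Wt1, Gata4, Rhox5 or Inha. The peritubular markers Acta2, Myh11 and Tagln had no contig either. Round spermatid markers summed to 973 to 1131 in RS and to 799 to 923 in ES, with 1 of 7 contigs higher and 3 lower in wt/wt. In wt/wt, meiotic markers gave 1 higher and 5 lower of 16, and spermatogonial and S phase markers 1 higher and 2 lower of 3. The part of these cells in the changes of the members was not tested.

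Linker histones were 3 contigs, of which 2 rose. H1f7, a linker histone of spermatids found at the pole of the nucleus under the acrosome (chr15:98255986-98257293, minus strand, 1 exon), stood at 194, 326 and 333 scaled CPM in RS wt/wt and at 2263, 2254 and 1653 in ES wt/wt. In dcat/dcat it stood at 263, 328 and 329.6 in RS and at 1883, 1653 and 1829 in ES. Every ES library lay above every RS library. Its log2 change was 2.86 (SE 0.21, q = 1.5e-06) in wt/wt and 2.54 (SE 0.21, q = 3.1e-06) in dcat/dcat. H1f9, the linker histone of elongating spermatids also called HILS1 (chr11:94967593-94968456, plus strand, 1 exon), stood at 479, 647 and 832 in RS wt/wt and at 2745, 3323 and 2433 in ES wt/wt. In RS wt/wt, replicate 1 was the lowest library for both genes. H1f9 changed by 2.12 on the log2 scale (SE 0.21, q = 3.0e-06) in wt/wt and by 2.07 (SE 0.21, q = 4.9e-06) in dcat/dcat. H1f10, a linker histone of many cell types that is made outside S phase, ranged from 38.0 to 97.2 over all 12 libraries, its groups overlapped, and it was not called in wt/wt (log2 0.10, SE 0.32, q = 0.82) or in dcat/dcat (q = 0.98).

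All short testis H2A variants rose in both genotypes. The H2A proteins of some of them open the nucleosome, and that of H2al2a lets transition proteins load onto DNA. All 11 contigs were higher in every ES library than in any RS library of the same genotype, where 25.9% (wt/wt) and 25.7% (dcat/dcat) of all contigs were so. Over all members the stages did not overlap for 59 in wt/wt (27 higher, 32 lower), where 53.3% of all contigs did so (25.9% higher, 27.3% lower). In dcat/dcat they did not overlap for 47 (25 higher, 22 lower), where 50.9% of all contigs did so (25.7% higher, 25.2% lower). Log2 changes ran from 2.37 (H2al1e) to 3.17 (H2al2a) in wt/wt, with a median of 2.70, and from 2.19 (H2al1a) to 3.04 (H2al1n) in dcat/dcat, with a median of 2.53. H2al2a, on chromosome 2 (chr2:17996417-17996958, minus strand), stood at 140.4, 276 and 323 in RS wt/wt and at 2362, 2560.4 and 1748 in ES wt/wt. In dcat/dcat the values were 183, 270.1 and 337 in RS and 2226, 2272 and 1744 in ES. Its log2 change was 3.17 (SE 0.30, q = 2.4e-06) in wt/wt and 2.98 (SE 0.29, q = 4.6e-06) in dcat/dcat. H2ap, an H2A-like gene near H2al3 on chromosome X (chrX:9846928-9847508, plus strand), stood at 92.2, 154 and 199.9 in RS wt/wt and at 1039.5, 1209.8 and 992 in ES wt/wt, a log2 change of 2.86 (SE 0.25, q = 1.9e-06). Relative to the mean, RS libraries spread more widely than ES libraries for both genes, with replicate 1 lowest in each genotype.

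Of the H2al1 genes, H2al1g (chrX:11318256-11318764, plus strand) held the most counts, at 50.7, 100.1 and 116 in RS wt/wt, against 509, 626 and 448 in ES wt/wt. H2al3 (chrX:9849703-9850255, plus strand), the variant with the longest coding sequence of the H2al genes, stood at 25.8, 65.5 and 71.6 in RS wt/wt and at 329.6, 411 and 289.6 in ES wt/wt. The processed pseudogene H2al1r-ps also rose, with 1.66, 3.57 and 6.51 in RS wt/wt, against 23.2, 34.2 and 21.2 in ES wt/wt (log2 2.64, SE 0.48, q = 0.00055). Over whole alignments, which count the bases it lacks as differences, its contig was 53.4% to 56.9% identical to those of the H2al1 genes, and whether reads of these genes were assigned to it was not tested. Of the 11 genes, 10 lie on chromosome X, a chromosome that is largely silent after meiosis, and H2al2a, on an autosome, also rose.

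**Figure D2:**
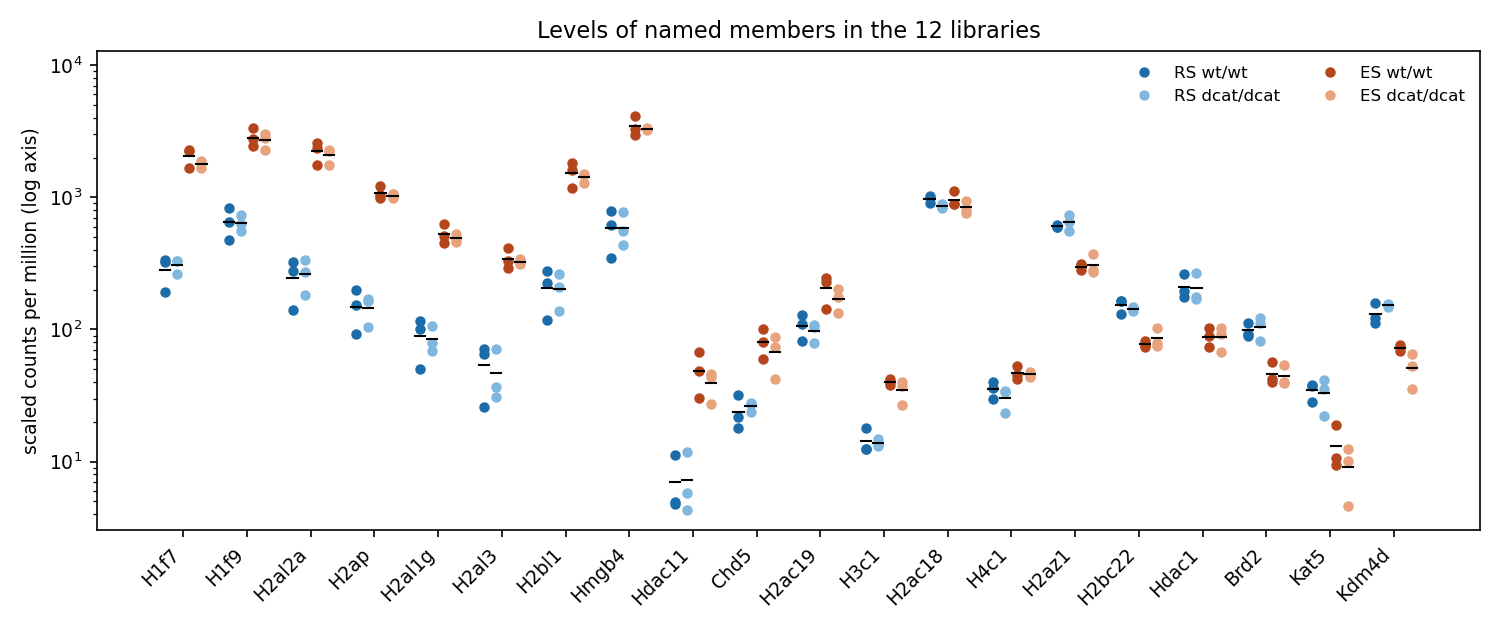
Scaled CPM (log axis) of 20 member genes in the 12 libraries, each by its contig with the most counts. Points are libraries, coloured by group, and short lines are group means of 3 libraries. From H1f7 to H3c1 the ES points lie above the RS points of the same genotype, in H2ac18 they overlap, and from H2az1 to Kdm4d they lie below.

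The other H2A contigs moved in both directions. Of 8 contigs, 2 rose, 1 fell and 5 were not called in wt/wt, with a median log2 change of -0.28. Over all contigs, 23.8% rose and 16.5% fell in wt/wt. H2ac18, whose stem-loop is shown above (chr3:96245497-96246082, plus strand), stood at 905, 993 and 1021 in RS wt/wt and at 883, 1115 and 889.9 in ES wt/wt. The groups overlapped, and the log2 change was -0.01 (SE 0.14, q = 0.95). Without the correction for composition, the same contig was called lower (log2 -0.73, q = 0.00029), and among contigs with at least 10 counts in every library it was also lower (log2 -0.33, q = 0.034). H2ac19, its near copy on the other strand (chr3:96239749-96240276), stood at 81.4, 109.6 and 128 in RS wt/wt and at 144, 243 and 229.5 in ES wt/wt. It rose in wt/wt (log2 0.94, SE 0.25, q = 0.0079), a call that was lost on total counts (log2 0.24, q = 0.42). It also rose in dcat/dcat (log2 0.81, SE 0.25, q = 0.019), but not without RS replicate 1 or ES replicate 3 (q = 0.072 and 0.078). H2aj, an H2A gene with a poly(A) signal, rose in wt/wt (log2 0.96, SE 0.34, q = 0.034) but was not called in dcat/dcat (q = 0.087). With the replicate number as a block it was called in dcat/dcat too (q = 0.044). The wt/wt call was lost on total counts (q = 0.53) and without RS wt/wt replicate 2 or 3 or ES wt/wt replicate 2 or 3 (q = 0.057 to 0.12). The difference between the genotypes was not called (interaction q = 1.0).

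H2az1 encodes H2A.Z, a variant found at gene starts and in the sex chromosomes of spermatids. Its main contig (chr3:137864487-137866922, plus strand, 5 exons) stood at 599.9, 612 and 594 in RS wt/wt and at 300.02, 279.6 and 314 in ES wt/wt. In dcat/dcat the values were 652, 732 and 558 in RS and 271, 372 and 280.3 in ES. It fell by 1.02 on the log2 scale (SE 0.17, q = 0.00022) in wt/wt and by 1.07 (SE 0.16, q = 0.00014) in dcat/dcat, without overlap. H2az2, which encodes a close relative, had a log2 change of -0.61 (SE 0.36, q = 0.19), and H2ax one of -0.38 (SE 0.31, q = 0.35).

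The 3 H2B contigs split between a testis gene, which rose, and genes of the histone clusters, which fell in wt/wt. H2bl1, the H2B-like gene of spermatids (chr13:98984085-98984565, minus strand, 1 exon), stood at 117, 226 and 277 in RS wt/wt and at 1597, 1811 and 1183 in ES wt/wt. Its log2 change was 2.89 (SE 0.30, q = 4.3e-06) in wt/wt and 2.80 (SE 0.30, q = 7.5e-06) in dcat/dcat. H2bc22 (chr13:21787461-21789213, plus strand), an H2B gene whose contig ends with a poly(A) signal, stood at 130.4, 164 and 166 in RS wt/wt and at 73.9, 76.1 and 81.2 in ES wt/wt. It fell by 0.997 on the log2 scale (SE 0.20, q = 0.0010) in wt/wt and by 0.74 (SE 0.19, q = 0.0072) in dcat/dcat. H2bc21 held only 3 counts over the ES wt/wt libraries against 36 over RS wt/wt, a ratio of 0.243 with an exact 95% counting interval of 0.0478 to 0.768. Its call in wt/wt (q = 0.048) was lost under RLE scaling, with no filter and with robust moderation (q = 0.0504 to 0.054) and without any 1 of the ES wt/wt libraries (q = 0.080 to 0.16).

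Among the H3 contigs, 2 of the same gene moved in opposite directions. H3f3a and H3f3b encode the same protein, H3.3, the H3 variant that is put into chromatin outside S phase. The long contig of H3f3a (ENSMUST00000161308, 2841 bases, chr1:180800832-180813632, minus strand) stood at 1073, 1137 and 948 in RS wt/wt and at 642, 498 and 586 in ES wt/wt, and fell by 0.87 on the log2 scale (SE 0.18, q = 0.0012). It fell by 0.91 in dcat/dcat (SE 0.18, q = 0.00089). The short contig ENSMUST00000162814 (724 bases, chr1:180803024-180813943) went the other way, from 4.98, 8.34 and 14.8 in RS wt/wt to 40.1, 59.0 and 35.3 in ES wt/wt (log2 2.21, SE 0.46, q = 0.0015). It went in dcat/dcat from 13.9, 9.18 and 6.59 to 81.1, 49.9 and 28.7 (log2 2.41, SE 0.47, q = 0.00087). In wt/wt it held 0.880% ± 0.535 (SD, n = 3) of the H3f3a counts of RS libraries and 6.998% ± 2.44 of those of ES libraries. In dcat/dcat it held 0.907% ± 0.281 and 8.04% ± 2.42. The third contig, ENSMUST00000081026 (888 bases), had a log2 change of -0.02 (SE 0.45, q = 0.98). These contigs share sequence, so reads of one could be assigned to another.

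The calls of the 2 contigs of H3f3b depended on the processing. ENSMUST00000106454 stood at 287, 312 and 334 in RS wt/wt and at 211, 239.7 and 247 in ES wt/wt (log2 -0.42, SE 0.16, q = 0.045). That call was lost under RLE scaling, with no filter and within the 6 libraries compared (q = 0.052 to 0.11), without RS wt/wt replicate 2 or 3 and without any 1 of the ES wt/wt libraries (q = 0.076 to 0.28). In dcat/dcat its log2 change was -0.11 (SE 0.16, q = 0.60). ENSMUST00000016703 was not called in wt/wt (log2 -0.35, SE 0.16, q = 0.10) or in dcat/dcat (q = 0.20). Among contigs with at least 10 counts in every library it was called lower in wt/wt (log2 -0.66, q = 0.0023) and in dcat/dcat (log2 -0.54, q = 0.0081), as was ENSMUST00000106454 in dcat/dcat (log2 -0.38, q = 0.038). On total counts ENSMUST00000016703 was lower too (q = 0.00014 in wt/wt and 0.00036 in dcat/dcat), and ENSMUST00000106454 was lower in dcat/dcat (q = 0.0012). H3c1, the replication-type H3 gene (chr13:23761853-23762386, minus strand), stood at 12.5, 17.9 and 12.4 in RS wt/wt and at 40.1, 38.0 and 42.4 in ES wt/wt. It rose in wt/wt (log2 1.51, SE 0.28, q = 0.00073) and in dcat/dcat (log2 1.28, SE 0.29, q = 0.0028), but on total counts not in dcat/dcat (q = 0.084). H4c1, the H4 gene with both kinds of end (chr13:23760692-23761230, minus strand), stood at 39.9, 29.8 and 36.1 in RS wt/wt and at 42.3, 45.7 and 53.0 in ES wt/wt. The groups did not overlap, but the change was not called (log2 0.39, SE 0.25, q = 0.23).

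**Figure D3:**
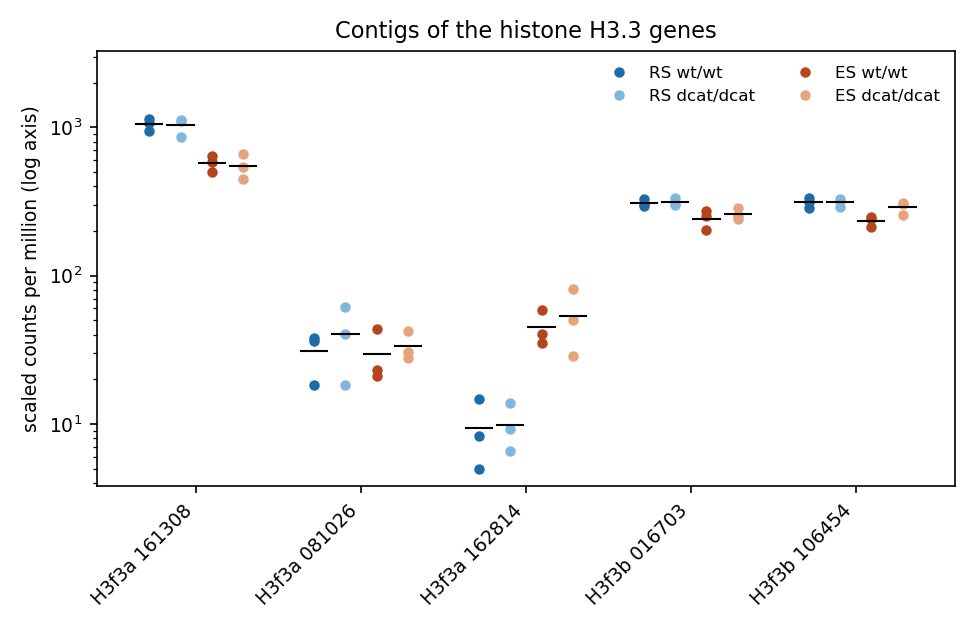
Scaled CPM (log axis) of the 5 contigs of the H3.3 genes H3f3a and H3f3b, named by the last digits of their transcript identifiers. Points are libraries and short lines are group means of 3 libraries. The long H3f3a contig is lower and the short one higher in every ES library than in any RS library of the same genotype.

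As a share of all counts, members took 1.08% ± 0.0638 (SD, n = 3) in RS wt/wt, 1.07% ± 0.0395 in RS dcat/dcat, 1.57% ± 0.125 in ES wt/wt and 1.51% ± 0.0241 in ES dcat/dcat. For a description of the histone pool, H1f7, H1f9, H2bl1 and the 11 short H2A contigs were added up, a grouping chosen after their values were seen. They held 24.9%, 33.7% and 39.1% of histone counts in RS wt/wt and 81.4%, 81.7% and 76.9% in ES wt/wt. In dcat/dcat they held 28.6%, 32.2% and 40.2% in RS and 79.8%, 79.5% and 79.0% in ES. The RS libraries with the lowest share, replicate 1 of each genotype, were also those with the lowest sum of elongated spermatid markers. The other 18 histone contigs went from 0.482% ± 0.0163 of all counts in RS wt/wt to 0.229% ± 0.0218 in ES wt/wt, and from 0.466% ± 0.0379 to 0.226% ± 0.00427 in dcat/dcat. A share of all counts is not corrected for composition. With the 10 most abundant contigs of each library left out of the total, the share of all members was 1.16%, 1.15%, 1.99% and 1.90% in the same order of groups.

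**Figure D4:**
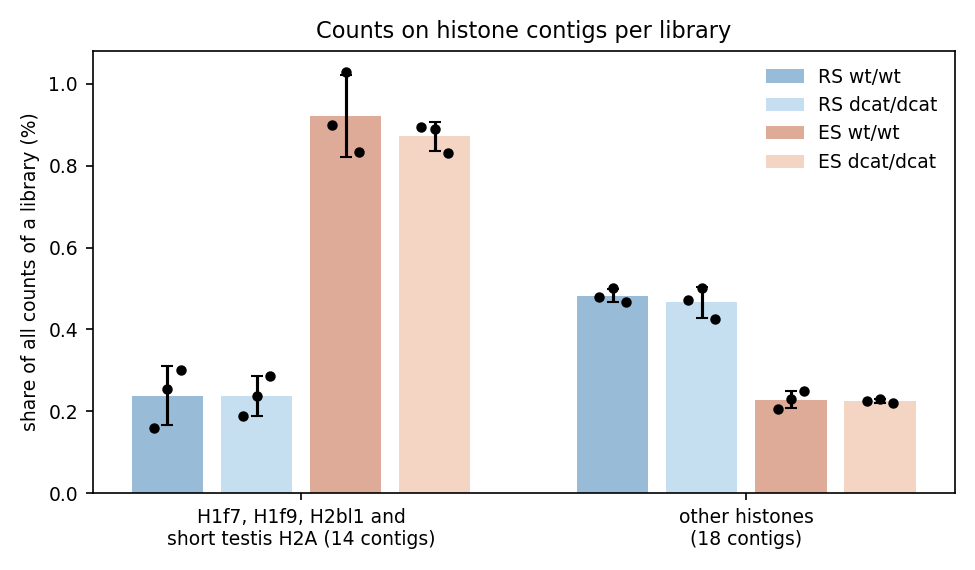
Share of all counts of a library (%) on 14 testis histone contigs (H1f7, H1f9, H2bl1 and short testis H2A) and on the other 18 histone contigs. Bars are means, error bars SD and points the 3 libraries of each group. The testis contigs hold 0.159% to 0.300% in RS and 0.831% to 1.03% in ES, and the other histones 0.426% to 0.501% and 0.206% to 0.2496%.

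Genes with 1 exon carried most of the rises. Of the 25 tested member contigs with 1 exon, 19 rose and 1 fell in wt/wt, and of the 75 with more exons, 4 rose and 17 fell. Over all contigs found in the annotation, 40.9% of 384 contigs with 1 exon rose and 15.6% fell, against 22.5% and 17.0% of 10720 with more exons. The members with 1 exon are mostly the histones already described, and the H2al genes among them are near copies, so these are not separate observations.

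Most contigs of enzymes that add or remove histone acetyl groups were not called. Over all contigs, 16.5% fell and 23.8% rose in wt/wt, and 16.9% fell and 24.0% rose in dcat/dcat. Of 7 deacetylase contigs, 1 rose and 1 fell in each genotype. Hdac1, a class I deacetylase of several corepressor complexes (chr4:129516104-129542713, minus strand), stood at 263, 194 and 175 in RS wt/wt and at 88.7, 74.2 and 102 in ES wt/wt. It fell by 1.27 on the log2 scale (SE 0.25, q = 0.0011) in wt/wt and by 1.23 (SE 0.25, q = 0.0013) in dcat/dcat. Hdac11, the sole class IV deacetylase (chr6:91156665-91174692, plus strand), stood at 4.98, 4.77 and 11.2 in RS wt/wt and at 48.6, 30.4 and 67.1 in ES wt/wt. It rose by 2.64 on the log2 scale (SE 0.44, q = 0.00027) in wt/wt and by 2.47 (SE 0.46, q = 0.00065) in dcat/dcat. Neither gene's stages overlapped. The contigs of Hdac2, Hdac3 and Hdac5 were not called in either genotype.

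Of 10 acetyltransferase contigs, none rose and 2 fell in wt/wt, both of Kat5, and 1 fell in dcat/dcat. Kat5 encodes TIP60, which acetylates H4 and H2A. Its contig ENSMUST00000113641 (chr19:5603014-5610237, minus strand) stood at 37.4, 38.1 and 28.4 in RS wt/wt and at 19.02, 9.51 and 10.6 in ES wt/wt. It fell by 1.37 on the log2 scale (SE 0.39, q = 0.012) in wt/wt and by 1.83 (SE 0.42, q = 0.0027) in dcat/dcat. Without ES wt/wt replicate 2, the wt/wt change was -1.05 and not called (q = 0.11). The other contig called in wt/wt, ENSMUST00000236964 (q = 0.014), also lost its call without that library. In dcat/dcat that contig and ENSMUST00000235701 missed the threshold (q = 0.057 and 0.056) and were called with the replicate number as a block. Kat8, the acetyltransferase of H4 lysine residues also known as MOF (chr7:127912516-127925837, plus strand), stood at 113, 129 and 139.6 in RS wt/wt and at 118, 116 and 155 in ES wt/wt. Its groups overlapped (log2 0.02, SE 0.20, q = 0.96), but on total counts it was called lower (log2 -0.69, q = 0.012). None of the 5 contigs of Kat7 was called.

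Demethylases gave 3 falls among 12 contigs in wt/wt, where 16.5% of all contigs fell. They gave 1 rise and 4 falls in dcat/dcat, where 24.0% of all contigs rose and 16.9% fell. Kdm4d, a testis-rich demethylase of histone H3 (chr9:14462548-14500482, minus strand), stood at 158, 112 and 122 in RS wt/wt and at 76.1, 68.5 and 74.2 in ES wt/wt. In dcat/dcat it stood at 156, 152 and 149 in RS and at 53.3, 64.9 and 35.5 in ES. It fell by 0.84 on the log2 scale (SE 0.23, q = 0.0085) in wt/wt and by 1.59 (SE 0.23, q = 0.00010) in dcat/dcat. Without ES wt/wt replicate 2 the wt/wt call was lost (q = 0.071). Kdm1a, the demethylase LSD1, fell in its contig ENSMUST00000105847, from 64.8, 58.4 and 50.9 in RS wt/wt to 25.4, 30.4 and 17.7 in ES wt/wt (log2 -1.19, SE 0.30, q = 0.0056). The other contig, ENSMUST00000116273, was not called (log2 -0.52, SE 0.34, q = 0.23). The third fall in wt/wt was that of 1 contig of Kdm2b (log2 -1.78, q = 0.020), which was lost with DESeq2 (q = 0.055) and without ES wt/wt replicate 1 or 3 (q = 0.14 and 0.058). The 4 falls in dcat/dcat were those of Kdm4d, the same Kdm1a contig (q = 0.014) and 2 contigs of Kdm3a (q = 0.028 and 0.041). The Kdm1a and Kdm3a calls were each lost without any 1 of 3 or more libraries (q = 0.054 to 0.16). Kdm3a ENSMUST00000065509 was also called lower in wt/wt with the replicate number as a block (q = 0.017). Kdm5b, which removes methyl groups of H3 lysine residues at promoters, had a log2 change of 0.63 (SE 0.26, q = 0.070) in wt/wt. It was called with the replicate number as a block (log2 0.62, q = 0.025) and without ES wt/wt replicate 1 (log2 0.83, q = 0.048). The rise in dcat/dcat was that of Kdm7a, from 8.55, 6.56 and 5.77 in RS to 18.5, 17.5 and 23.6 in ES (log2 1.52, SE 0.46, q = 0.016). That call was lost on total counts (log2 0.86, q = 0.12) and without RS or ES dcat/dcat replicate 3 (q = 0.054 and 0.068). In wt/wt its log2 change was 0.71 (SE 0.45, q = 0.22), and the interaction was not called (edgeR q = 1.0).

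Among the bromodomain genes, all 3 contigs of Brd2 fell in both genotypes and nothing else was called. Brd2 encodes a reader of acetylated histones of the BET family. Its contig ENSMUST00000025193 (chr17:34112023-34122600, minus strand) stood at 112, 92.9 and 89.9 in RS wt/wt and at 42.3, 39.9 and 56.5 in ES wt/wt, without overlap. It fell by 1.11 on the log2 scale (SE 0.25, q = 0.0024) in wt/wt and by 1.22 (SE 0.24, q = 0.0011) in dcat/dcat. The call of ENSMUST00000114242 (log2 -0.90, q = 0.035 in wt/wt and log2 -1.003, q = 0.021 in dcat/dcat) was lost under several alternatives. In wt/wt it was lost within the 6 libraries compared (q = 0.067) and without RS replicate 1, ES replicate 1 or ES replicate 2 (q = 0.13, 0.18 and 0.20). In dcat/dcat it was lost without RS replicate 1 or 2 or ES replicate 1 or 3 (q = 0.057 to 0.064). Brdt, the testis member of the family that compacts hyperacetylated chromatin of spermatids, was not called. Its main contig ENSMUST00000112677 (chr5:107331175-107350741, plus strand) stood at 115, 104 and 110.0 in RS wt/wt and at 112, 126 and 109 in ES wt/wt (log2 0.08, SE 0.17, q = 0.72). On total counts it was called lower (log2 -0.64, q = 0.0074). The contig with the longer span, ENSMUST00000031215, had a log2 change of -0.61 (SE 0.30, q = 0.11) and was also called lower on total counts (log2 -1.34, q = 0.0021).

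Of 5 contigs of CHD remodellers, only that of Chd5 was called. Chd5, a remodeller needed for the exchange of histones for protamines (chr4:152338887-152390181, plus strand), stood at 21.6, 17.9 and 31.9 in RS wt/wt and at 101, 79.9 and 60.03 in ES wt/wt. It rose by 1.74 on the log2 scale (SE 0.31, q = 0.00050) in wt/wt and by 1.39 (SE 0.32, q = 0.0028) in dcat/dcat, where the call was lost on total counts (q = 0.059). Chd1l, which is recruited by poly(ADP-ribose), had a log2 change of -0.72 in wt/wt (SE 0.34, q = 0.11). It was called lower in wt/wt on total counts (log2 -1.45, q = 0.0037). Among contigs with at least 10 counts in every library it was lower too (log2 -1.05, q = 0.015). Of 14 SWI/SNF and ISWI contigs, none rose and 3 fell in wt/wt, and 1 fell in dcat/dcat. Over all contigs, 16.5% fell in wt/wt and 16.9% in dcat/dcat. In wt/wt, 12 of the 14 log2 changes were below 0, as were 6784 of all 11831 contigs tested. The 14 contigs belong to 7 gene symbols, so they are not separate observations. Their median log2 change was -0.81 in wt/wt and -0.55 in dcat/dcat. Smarca5, the ISWI ATPase, overlapped between stages (log2 -0.14, SE 0.35, q = 0.78), as did Smarcc2, a core subunit of SWI/SNF (log2 0.11, SE 0.38, q = 0.84). The fall with the smallest q was that of the contig ENSMUST00000106843 of Smarcd2, another SWI/SNF subunit. It stood at 11.6, 13.1 and 19.5 in RS wt/wt and at 2.11, 1.90 and 3.53 in ES wt/wt (log2 -2.60, SE 0.56, q = 0.0019). These are 58 counts against 3, a ratio of 0.151 with an exact 95% counting interval of 0.0302 to 0.463. The other falls in wt/wt were contigs of Smarca2, an ATPase of SWI/SNF (ENSMUST00000025862, log2 -1.59, q = 0.032), and of Smarcb1, a core subunit (ENSMUST00000121304, log2 -1.58, q = 0.039). Both calls were lost without any 1 of the ES wt/wt libraries or without RS wt/wt replicate 1 (q = 0.056 to 0.24). That of Smarca2 was also lost with DESeq2 (q = 0.067), and that of Smarcb1 without RS wt/wt replicate 2 (q = 0.068). The fall in dcat/dcat, of Smarca2 ENSMUST00000176030 (log2 -2.18, q = 0.0497), was lost with DESeq2, with no filter, without RS dcat/dcat replicate 2 and without any 1 of the ES dcat/dcat libraries (q = 0.051 to 0.14). With the replicate number as a block, Smarca4 ENSMUST00000098948 and Smarcd2 ENSMUST00000021052 were called lower in wt/wt (q = 0.040 and 0.042), and Smarca5 and Smarcb1 ENSMUST00000121304 in dcat/dcat (q = 0.026 and 0.011).

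Among the HMG genes, Hmgb4, Hmgb1-rs17 and Hmgb2 rose in both genotypes. Of 8 contigs, 3 rose and 1 fell in wt/wt, and 3 rose and none fell in dcat/dcat. Over all contigs, 23.8% rose and 16.5% fell in wt/wt, and 24.0% rose and 16.9% fell in dcat/dcat. Hmgb4, an HMG-box gene of spermatids (chr4:128260212-128260957, minus strand, 1 exon), held the most counts of all members. It stood at 347, 612 and 785 in RS wt/wt and at 3302, 4141 and 2949 in ES wt/wt, and rose by 2.57 on the log2 scale (SE 0.27, q = 5.0e-06) in wt/wt and by 2.47 (SE 0.27, q = 9.0e-06) in dcat/dcat. Hmgb1-rs17, annotated as a pseudogene with 1 exon (chr8:33484196-33485167, plus strand), stood at 31.6, 52.4 and 53.8 in RS wt/wt and at 347, 318 and 265 in ES wt/wt (log2 2.75, SE 0.23, q = 1.7e-06). Its sequence was 81.5% identical to the part of the Hmgb1 contig it resembles. Hmgb1 itself ranged from 9.53 to 17.4 in RS wt/wt and from 17.7 to 30.4 in ES wt/wt and was not called (log2 0.97, SE 0.48, q = 0.12). Hmgb2, a close relative, rose (log2 1.47, SE 0.37, q = 0.0056 in wt/wt and log2 2.13, SE 0.36, q = 0.00027 in dcat/dcat), though not in wt/wt on total counts (q = 0.096). Hmga2, an AT-hook protein, fell in wt/wt (log2 -0.67, SE 0.25, q = 0.044), a call that was lost without any 1 of the 6 libraries (q = 0.059 to 0.21). The nucleosome-binding genes Hmgn1 and Hmgn2 were not called.

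Contigs of 1 gene differed in call in several genes. Of the 18 gene symbols with more than 1 contig, H3f3a alone had contigs called in opposite directions. How often this occurs among all genes of the series with more than 1 contig was not counted. When counts were summed by gene, 70 gene symbols were tested, of which 24 rose and 14 fell in wt/wt, where 26.1% of 7706 genes rose and 22.9% fell. In dcat/dcat 25 rose and 10 fell, where 26.4% and 22.8% of all genes did.

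Genes of the same pathway without such symbols were taken from a list of 109 genes, of which 63 had a contig. Of its 109 tested contigs, 15 rose and 16 fell in wt/wt, where 23.8% of all contigs rose and 16.5% fell. In dcat/dcat 15 rose and 17 fell, where 24.0% and 16.9% of all contigs did. The same shares of all contigs stand beside each group of the list below. All 6 contigs of the protamine and transition protein genes rose in both genotypes, with a median log2 change of 2.96 in wt/wt. Tnp2, a transition protein, had a log2 change of 2.95 (SE 0.24, q = 1.7e-06), Prm1, a protamine, one of 3.10 (SE 0.27, q = 1.9e-06) and Prm3, a protamine-like gene, one of 2.86 (SE 0.24, q = 1.7e-06). Psme4, which encodes the proteasome activator of acetylated histones, rose in wt/wt (log2 0.72, SE 0.26, q = 0.041) and in dcat/dcat (log2 0.80, SE 0.26, q = 0.024). Its stages did not overlap in wt/wt but did in dcat/dcat. Whether these 2 calls hold on total counts or under the other alternatives was not examined. Other genes of histone acetylation gave 5 rises and 4 falls among 29 contigs in wt/wt, and 4 rises and 4 falls in dcat/dcat. Genes of histone methylation gave 3 falls among 28 in wt/wt and 5 in dcat/dcat. Genes of histone ubiquitination gave 2 rises and 2 falls among 11 in wt/wt, and 2 rises and no fall in dcat/dcat. Histone chaperones gave 4 falls among 24 contigs in wt/wt, and 1 rise and 4 falls in dcat/dcat. Those that fell in wt/wt included Asf1a, a chaperone of H3 and H4 (log2 -1.58, SE 0.31, q = 0.00092), and the main contig of Npm1, the nucleolar chaperone (log2 -0.85, SE 0.16, q = 0.00076). Ep400, the ATPase of the TIP60 complex, fell in wt/wt in 1 of its 4 contigs (log2 -1.30, SE 0.29, q = 0.0024). A mixed group of genes of DNA breaks and of chromatin remodelling gave 1 rise and 3 falls among 8 contigs in each genotype. Of 2 contigs of histone variants outside the symbol rule, none was called in wt/wt, and Macroh2a1, which encodes an H2A variant with a macro domain, fell in dcat/dcat (log2 -1.69, SE 0.39, q = 0.0029).

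Between genotypes, no member was called in RS or in ES, and none showed a called interaction of genotype and stage. No contig of any kind was called in these 3 comparisons (0.0% of 11831). At an unadjusted p under 0.05, 1 of 100 members passed in RS, where 0.828% of all contigs did, 3 in ES, where 3.01% did, and 3 for the interaction, where 1.44% did. DESeq2 called 0 members in each as well. The comparisons of RS and of ES share no libraries, while the interaction uses those of both. The short testis H2A contigs had log2 changes of dcat/dcat over wt/wt from -0.30 to 0.52 in RS (median -0.07) and from -0.39 to 0.30 in ES (median -0.10), and all histones ranged from -0.59 to 0.52 and from -0.39 to 1.03. A p that misses the threshold does not show that the genotypes are alike. For H2al2a, the log2 difference was 0.09 in RS (SE 0.28) and -0.10 in ES (SE 0.27).

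**Figure D5:**
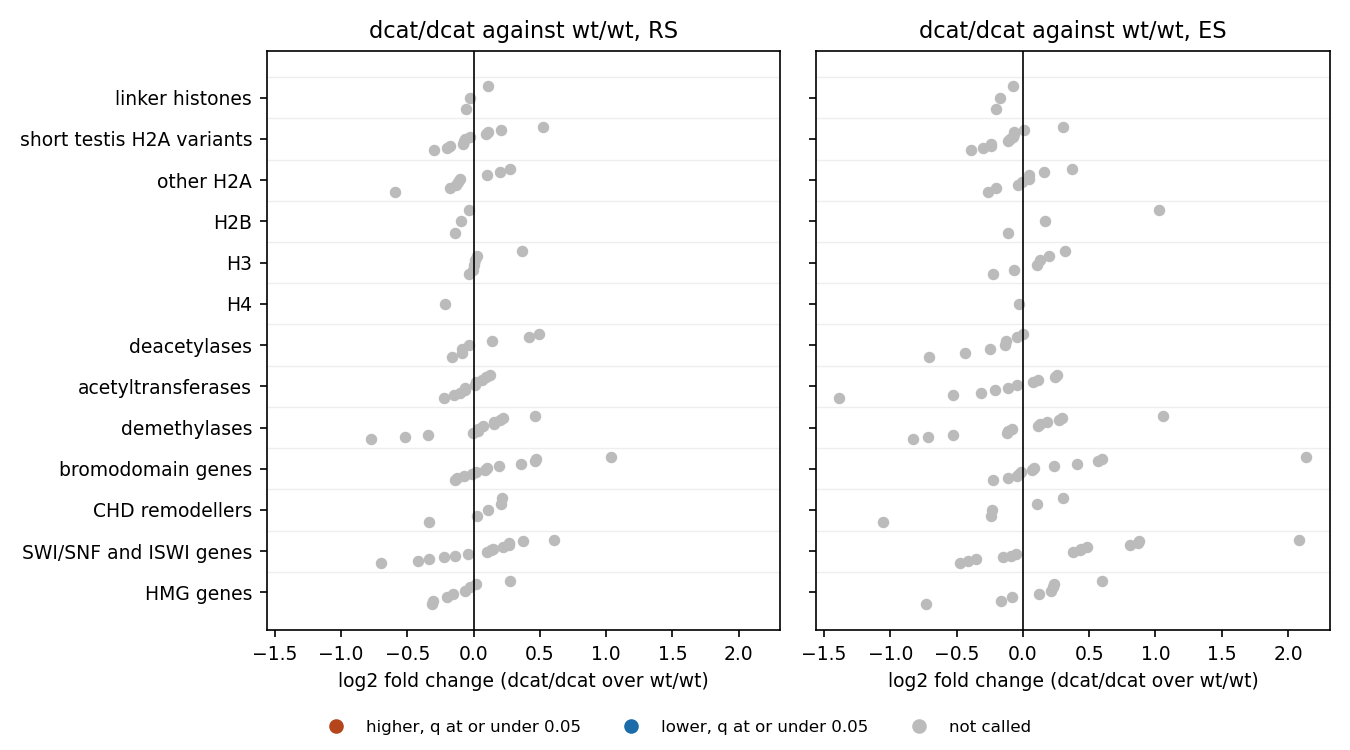
Log2 fold change of dcat/dcat over wt/wt for the 100 tested member contigs, by role, in RS (left) and ES (right). Each point is 1 contig, and none is called. In the histone roles the points lie between -0.59 and 1.03, and the widest values, among the modifiers and remodellers, belong to contigs with few counts.

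The members with the smallest p were mostly contigs with few counts. In RS these were Brd9, a subunit of a SWI/SNF complex, 1 contig of Kdm2b and ENSMUST00000021052 of Smarcd2. Brd9 stood at 9.97, 3.57 and 7.10 in wt/wt, against 23.5, 13.1 and 8.24 in dcat/dcat, and its groups overlapped (log2 1.03, SE 0.47, edgeR q = 1.0). The log2 changes were -0.77 for Kdm2b and -0.70 for Smarcd2. In ES, the contig of Smarcd2 with 3 counts in wt/wt had 15 in dcat/dcat, at 9.27, 9.99 and 11.8 (log2 2.08, SE 0.64, edgeR q = 1.0). Brd10 likewise had 3 and 15 counts (log2 2.14, SE 0.79). For each of these 2 contigs the ratio was 4.502, with an exact 95% counting interval of 1.27 to 24.3. The contig ENSMUST00000112390 of Chd4, the ATPase of the NuRD complex, stood at 19.02, 20.9 and 31.8 in ES wt/wt and at 4.64, 9.99 and 16.9 in ES dcat/dcat, without overlap (log2 -1.06, SE 0.45, edgeR q = 1.0). For the interaction, the members with the smallest p were the same Smarcd2 contig (log2 1.81), Kdm4d (log2 -0.75) and the same Chd4 contig (log2 -1.27). Over all members, groups did not overlap for 7 in RS and 8 in ES, where 5.31% and 7.66% of all contigs did so.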

How the data were processed

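The data were the read counts per reference contig that the authors deposited for 12 direct RNA libraries. Per the paper's methods and the labels, reads were basecalled with Guppy, demultiplexed with DeePlexiCon, aligned to GENCODE transcripts (mm10) with minimap2 and filtered with Nanopolish. Gene symbols came from deposited tables whose fold changes and p-values were not used. Counts were scaled by TMM in edgeR 4.0.16 (R 4.3.3), contigs with at least 10 reads in 2 libraries of a group were kept, and all 12 libraries were fitted by quasi-likelihood without a block. The SE of a log2 change was the change divided by the square root of its F value. The fit was first tested on simulated data. Positions and transcript ends came from GENCODE vM21 and promoters from RefSeq.

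Members and lists were chosen with earlier results of these data known. Contigs named were, per role, the 2 with the highest mean CPM and the risen and fallen contig with the smallest q in wt/wt, the 3 smallest p per genotype comparison, H3f3a and H3f3b, and 3 risen and 3 fallen contigs of the pathway list. Others were chosen after their values were seen: the remaining H2al contigs, Kat5, Kdm2b, Kdm7a, Hmgn1, Hmgb2, Kdm3a, Smarca2, Smarca4, Smarcb1, the members behind small counts, Psme4 and Macroh2a1. Per the paper's reporting summary, RS and ES came from the same mice and each sorting session held 1 mouse of each genotype, but which mice a replicate number pools is not given in the sources used here. Same-numbered libraries deviated together, with correlations over 0.1, in the stage comparison of dcat/dcat (0.25 to 0.52) and the RS genotype comparison (0.38 to 0.70), but not throughout in wt/wt stages (-0.09 to 0.40) or ES genotypes (0.03 to 0.45). Alternatives were RLE scaling, total counts, DESeq2 1.42.0, other filters, robust moderation, the 6 libraries compared, a replicate block and leaving out each library.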

Additional observations from a re-analysis of the deposited data

Results flagged for a closer look

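Hmgn2, which encodes a nucleosome-binding HMG protein, separated the stages in opposite directions in the 2 genotypes. In wt/wt it stood at 34.1, 36.9 and 36.1 scaled CPM in RS and at 29.6, 32.3 and 31.8 in ES, with a log2 change of -0.19. In dcat/dcat it stood at 29.9, 27.5 and 28.8 in RS and at 37.1, 39.9 and 32.1 in ES, with a log2 change of 0.33. Neither change was called, and the test of the difference itself gave an interaction of 0.52 on the log2 scale with q = 1.0 (edgeR).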

How the results depend on the processing

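Total counts without correction for composition called 68 members in wt/wt and 66 in dcat/dcat. Leaving out 1 library at a time gave 31 to 38 calls in wt/wt and 32 to 35 in dcat/dcat. Genotype and interaction counts were 0 under every alternative run. With the replicate number as a block, 45 members were called in wt/wt stages, 41 in dcat/dcat stages and 0 in each genotype comparison and the interaction. The block removed no stage call. For the block and for the fits without 1 library, the share of all contigs called was not counted. These member counts can therefore not be set against all contigs. A block within the 6 libraries compared, chosen after seeing the data, gave 0 in RS and 0 in ES. Outside the 10 most abundant contigs, the share of all members was 1.16% in RS wt/wt, 1.15% in RS dcat/dcat, 1.99% in ES wt/wt and 1.90% in ES dcat/dcat.

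Among the contigs named by rule, the log2 changes of ES over RS in wt/wt that turned their sign all belonged to members not called. Other members not called were left out of this check. On total counts H4c1 had -0.325, Kat8 -0.689, Kdm5b -0.0866, Brdt ENSMUST00000112677 -0.636 and Smarcc2 -0.619. Among contigs with at least 10 counts in every library, Kat8 had -0.304 and Brdt -0.237. H2ac18 had 0.0206 under RLE scaling, 0.0234 with DESeq2 and 0.0263 within the 6 libraries, and H3f3a ENSMUST00000081026 had 0.0246, 0.0105 and 0.0252. Leaving out 1 library at a time gave -0.0737 to 0.133 for H2ac18, -0.0854 to 0.164 for Kat8, -0.45 to 0.189 for Smarca5, -0.177 to 0.35 for Smarcc2 and -0.368 to 0.259 for H3f3a ENSMUST00000081026. The cause was not tested. Libraries of 337287 counts put the floor of 3 counts at up to 10.6 scaled CPM, which limits the members of low abundance.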
